A study of Drosophila melanogaster with 4 samples.

Results

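The vacuolar proton pump (V-ATPase) of Drosophila melanogaster was followed through the genes whose symbol begins with Vha in the gene annotation of the array's probe sets. The rule found 32 probe sets, which name 29 of the 10844 genes measured. Of these genes, 11 encode subunits of the V1 sector, 16 subunits of the V0 sector and 2 accessory subunits. RefSeq lists 33 genes with such symbols; Vha68-1, Vha68-2, Vha16-3 and Vha100-3 have no probe set naming them here and were not analysed. No probe set named a Vha gene together with another gene. Every member is named for a subunit of the pump.

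The pump is a rotary motor. Its V1 sector, on the cytoplasmic side, splits ATP and turns a central stalk, and the stalk drives a ring of proteolipid subunits in the membrane-bound V0 sector, which carries protons across. The resulting acidity is used by lysosomes, endosomes and the secretory pathway, loads transmitters into synaptic vesicles in neurons and, in insect epithelia, energises the plasma membrane for ion transport. Many subunits have several paralogous genes in the fly, some known chiefly from the testis.

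The 4 arrays measured total RNA from cell culture of Drosophila embryos, each from a negative fraction, which is what fluorescence-activated sorting leaves once labelled neurons are removed. Cultures of the 2 Cha-negative samples (letters a and b) were aged 3 to 5 days, and GFP marked their cholinergic neurons. In the Gad1 sort, which left 2 Gad1-negative samples (again a and b), neurons expressed the red fluorescent protein dsRed1 (RFP) from a direct fusion to a 2.1 kb promoter of glutamic acid decarboxylase 1, and no culture age is given. The comparison asks how the pump's genes differ between the cells left by the cholinergic and by the Gad1 sort. The groups also differ in reporter, GFP or RFP, and may differ in culture age. The part of these in a difference between groups cannot be told apart from that of the sort. A promoter fusion labels only the cells in which that promoter fragment is active, and a negative fraction keeps neurons of other classes and every non-neuronal cell of the culture. Nothing in the labels says that the letters stand for separate cultures, and the p-values then measure only the spread between these samples, which may be technical. In such mixed RNA fewer cells of a type and less RNA per cell cannot be told apart.

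Values are deposited intensities on a linear scale. A floor at the 20th percentile of all values, 44.9, was set before log2 was taken, and the 6994 genes with a mean log2 of at least 7.05, an intensity of 132, entered the test. The median probe set intensity was 247.6 and 219.3 in Cha-negative samples a and b, against 213.2 and 181.1 in Gad1-negative samples a and b. As a sign of RNA quality, the ratio of 3' over 5' signal was read from 3 controls. For GAPDH the Cha-negative samples gave a ratio of at least 144 (sample a, with its 5' signal under the floor) and of 185 (sample b), and the Gad1-negative samples 23.9 and 38.0. For ACTIN it was 59.4 and 124 against 82.1 and 106, which overlapped. For eIF-4a the lower bounds in Cha-negative, where both 5' signals lay under the floor, were 321 and 935, and the Gad1-negative ratios were 230 and 77.1. In all 4 samples each control thus read far higher at its 3' end, by 23.9-fold at the least. Of 41 marker genes measured for 10 cell types, 29 lay above the floor in all 4 samples and 2 lay under it in all 4, which were Gad1 and the testis gene topi. The summed intensity of the 5 neuron markers was 764 and 1270 in Cha-negative samples a and b, against 552 and 2266 in Gad1-negative samples a and b, so neuron markers were read in every fraction. The 3 muscle markers summed to 2428 and 1397 in Cha-negative and to 4621 and 8564 in Gad1-negative, and the 5 gut markers to 1606 and 3267 against 1019 and 799. Most of each muscle sum was Mlc2. The muscle genes Mlc2 and Prm lay apart between the groups, and the muscle gene up overlapped (310.6 and 228.8 against 145.7 and 334.8). The median intensities, the muscle and gut sums and the GAPDH and eIF-4a ratios lay apart between the groups and the ACTIN ratio did not. Their part in any difference given here was not tested. The testis sum, given with the dim paralogues, lay apart too, narrowly, at 758 in Cha-negative b against 706 in Gad1-negative a. Of the testis genes dj alone lay apart between the groups (859.5 and 70.6 against 48.3 and 4.3, the last under the floor). The sums of the remaining lists overlapped between the groups. Over Cha-negative a, Cha-negative b, Gad1-negative a and Gad1-negative b, in that order, the 5 glial markers summed to 1596, 1530, 2171 and 1051, the 5 haemocyte markers to 1556, 1012, 2028 and 509, the 4 fat body markers to 7732, 4468, 5884 and 7428, and the 4 Malpighian tubule markers to 969, 517, 540 and 894. The tubule markers were ct, Kr, Irk1 and tsh, with Kr and tsh each under the floor in 2 samples. Whether they mark the tubule in these cultures was not tested. The 2 cholinergic markers summed to 2764, 1115, 778 and 1246 and the 2 GABAergic markers to 344, 534, 457 and 455. Cholinergic genes were thus still read after the cholinergic sort. ChAT was at 2000 and 594.5 in Cha-negative against 590.1 and 781.1 in Gad1-negative, and ChT at 764.1 and 520.4 against 187.4 and 465.4. Gad1 lay under the floor in Cha-negative as well as in Gad1-negative. How fully either sort removed its neurons was not tested.

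No Vha gene passed the test between the fractions. Of the 29 genes, 21 lay above the intensity filter, and limma called 0 of these at an adjusted p under 0.05, as it called 0 of 6994 genes (0%). At an unadjusted p under 0.05 the count was also 0 of 21, against 345 of 6994 (4.93%). The limma adjusted p of the members ran from 0.925 to 0.997. Each difference is the Gad1-negative mean minus the Cha-negative mean of log2 values, with the fit's standard error (SE) and 2 samples per group. Of the 21 differences, 10 were positive (47.6%, against 47.7% of all genes tested) and 11 negative, with a median of -0.05 beside -0.04 over all genes tested. Leaving out Cha-negative a moved the members' median to -0.52, and leaving out Cha-negative b moved it to 0.20. The size of the difference was under 1 in 20 of the 21 genes, and the 95% interval held 0 in all 21. That interval reached a median of 1.44 to either side, a 2.71-fold change, without adjustment for the number of genes. It is not the limit of detection at an adjusted p. Over all genes tested the differences ran from -4.06 to 3.62, and 0 were called. With 2 samples a group, the smallest two-sided p of an exact permutation test is 0.333. The groups did not overlap in 6 of the 21 genes (28.6%), against 34.7% of all genes tested, a share close to the background.

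**Figure D1:**
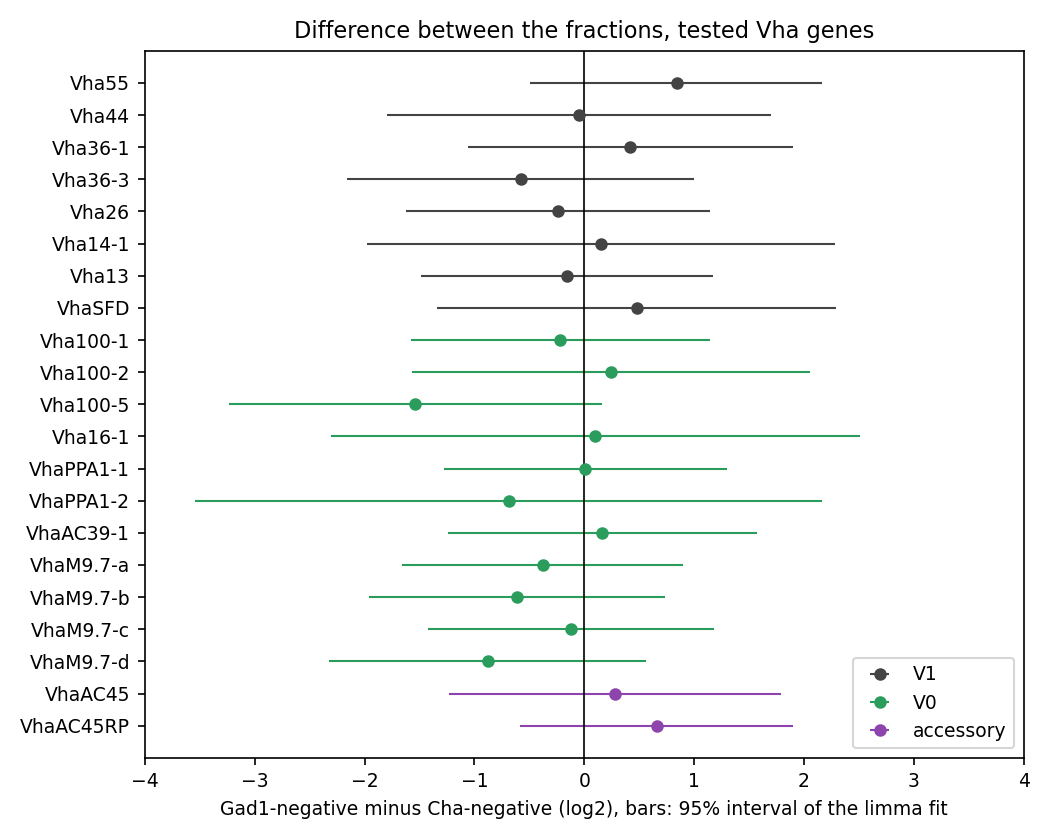
Difference between the fractions on the log2 scale (Gad1-negative minus Cha-negative, horizontal axis) for the 21 tested Vha genes, coloured by sector; points are limma estimates from 2 samples per group and bars their 95% intervals. Every bar crosses 0, and the point farthest from 0 is Vha100-5 at -1.54.

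In the V1 sector, the motor that splits ATP, 8 of 11 genes were tested, with 4 positive and 4 negative differences and a median of 0.05. Leaving out Cha-negative a turned that median to -0.32 and leaving out Gad1-negative b turned it to -0.39, while it was 0.79 without Cha-negative b and 0.66 without Gad1-negative a. The A subunit holds the catalytic site. Its paralogue Vha68-3 read 9.4 and 15.3 in Cha-negative samples a and b, against 8.6 and 4.2 in Gad1-negative samples a and b, under the floor in every sample, so no fold was computed. Vha55, the B subunit, which binds nucleotide beside the A subunit without splitting it, read 599.7 and 1042.6 against 1134.0 and 1757.0. Both Gad1-negative samples stood above both Cha-negative samples, the lower by a small margin. The difference was 0.84 ± 0.57 (limma adjusted p = 0.925; 95% interval from -0.49 to 2.16), the highest among the 21 genes.

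Vha44, the C subunit, which bridges V1 to the membrane sector and leaves when the pump comes apart, read 366.1 and 1246.7 in Cha-negative samples a and b, against 423.5 and 1005.7 in Gad1-negative samples a and b. The b sample was over 2-fold above the a sample in each group, and the groups overlapped (-0.05 ± 0.75, from -1.80 to 1.70; 0.20 with each array centred on its median). Of the central stalk, Vha36-1 (subunit D) read 1018.4 and 1598.9 against 1071.4 and 2734.2, and Gad1-negative b stood above the other samples. Its difference of 0.42 ± 0.64 became -0.25 without that sample. Vha36-3, another gene of the D subunit, read 258.5 and 237.4 against 187.0 and 146.7. These were low intensities with no overlap, and the difference was -0.58 ± 0.68. Vha14-1, the F subunit of the same stalk, read 602.1 and 4011.2 against 1134.4 and 2616.3. Its Cha-negative samples lay 6.66-fold apart and its difference, 0.15 ± 0.92, had an interval from -1.98 to 2.28.

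The peripheral stalks, which hold the motor still against the turning rotor, are built from the E and G subunits. Vha26, the E subunit, read 11087.6 and 9517.2 in Cha-negative and 7949.6 and 9548.2 in Gad1-negative. These values lay within 1.39-fold of each other, whereas the median range over the 4 samples was 2.37-fold among the 21 Vha genes and 2.69-fold among all genes tested. The difference was -0.24 ± 0.60, and 0.01 with each array centred on its median. Vha13, the G subunit, read 2541.0 and 2121.3 against 1504.9 and 2858.0, with the Gad1-negative samples on either side of the Cha-negative ones (-0.16 ± 0.57; 0.08 with centring). VhaSFD, the H subunit, which couples the motor to the membrane sector, read 429.9 and 2031.5 against 1036.5 and 1634.4 on the probe set used for the gene. Cha-negative a was the lowest sample and Cha-negative b the highest, and the difference of 0.48 ± 0.78 became -0.64 without Cha-negative a.

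**Figure D2:**
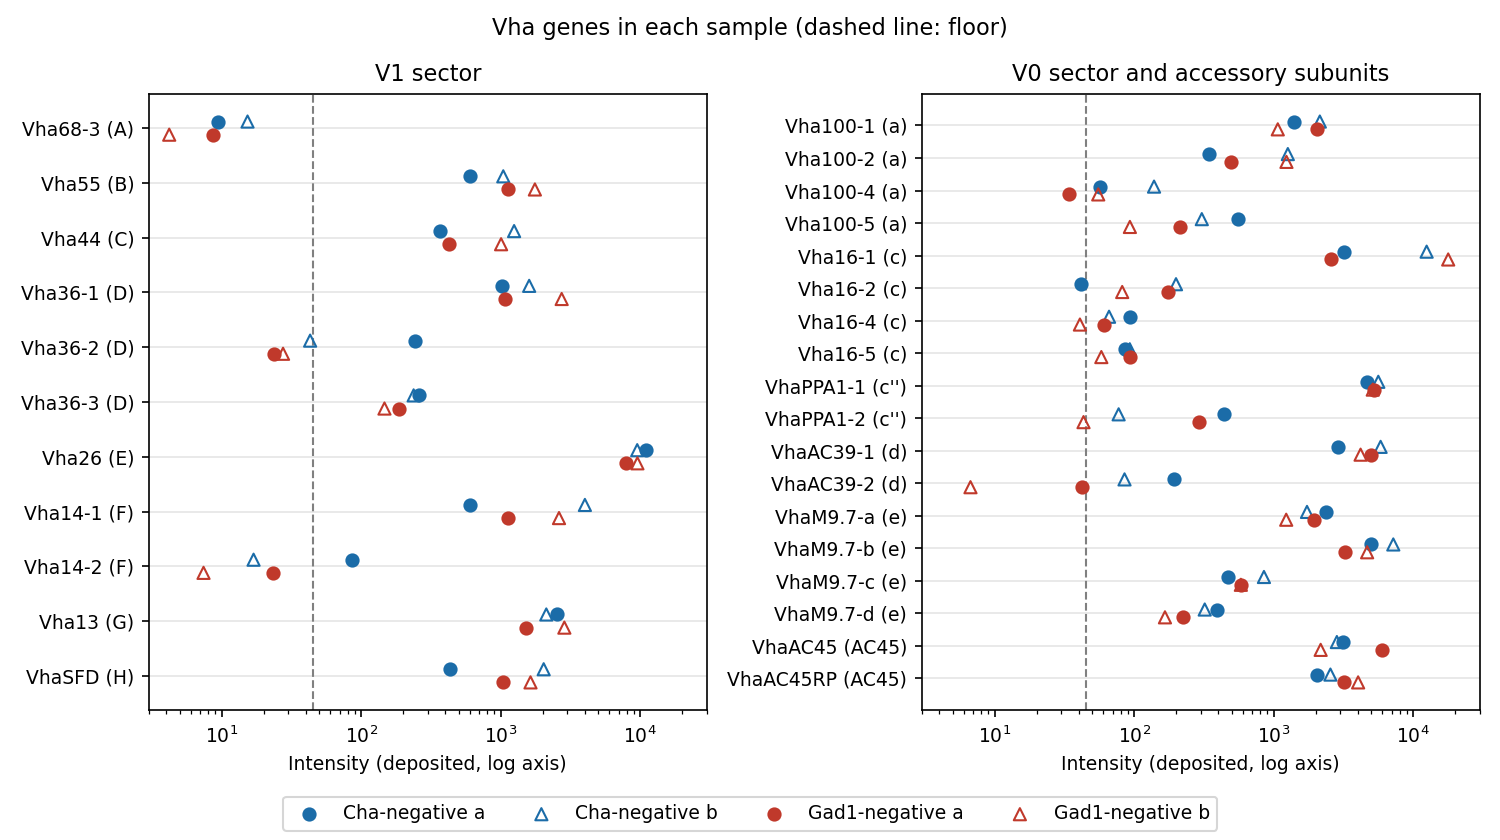
Deposited intensity on a log axis of the 29 Vha genes in the 4 samples, with V1 genes at left and V0 and accessory genes at right; blue marks Cha-negative and red Gad1-negative, filled circles sample a and open triangles sample b, and the dashed line the floor of 44.9. Vha26 and VhaPPA1-1 keep close together, Vha16-1 and Vha14-1 split by sample letter, and 8 genes have a sample left of the floor.

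In the V0 sector 11 of 16 genes were tested, with 4 positive and 7 negative differences and a median of -0.22, which was 0.08 without Cha-negative b and 0.02 with each array centred on its median. The a subunit guides protons to and from the ring and helps to set where in the cell the pump sits. Vha100-1, the form needed at fly synapses, read 1400.4 and 2141.0 in Cha-negative samples a and b, against 2058.1 and 1069.4 in Gad1-negative samples a and b. Its groups overlapped almost wholly (-0.22 ± 0.59, from -1.58 to 1.14). Vha100-2 read 343.1 and 1262.5 against 491.2 and 1234.3, with both b samples high, both a samples low and hardly a gap between groups (0.24 ± 0.78).

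Vha100-5 was the member farthest from 0. This a-subunit gene read 552.6 and 305.1 in Cha-negative samples a and b, against 214.5 and 93.1 in Gad1-negative samples a and b. Both Gad1-negative samples lay under both Cha-negative samples, and the a sample was the higher of each group. The difference was -1.54 ± 0.73, with an interval from -3.23 to 0.16, an unadjusted p = 0.0694 and a limma adjusted p = 0.925. With 1 sample left out it ran from -2.14 to -0.94 and kept its sign. It was -1.29 with each array centred on its median and -1.25 with an offset of 50 in place of the floor. The intensities were low, with Gad1-negative b under the filter intensity of 132.

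The proteolipid ring is made of c subunits and a related c'' subunit. Vha16-1, the c subunit, read 3192.9 and 12483.9 in Cha-negative samples a and b, against 2571.3 and 17818.8 in Gad1-negative samples a and b. The b sample exceeded the a sample 3.91-fold in Cha-negative and 6.93-fold in Gad1-negative, while the difference between groups was 0.10 ± 1.04 and became -0.88 without Cha-negative a and -1.30 without Gad1-negative b. VhaPPA1-1, the c'' subunit, read 4687.2 and 5621.0 against 5223.9 and 5129.0. It was the steadiest member, with all samples within 1.20-fold and a difference of 0.01 ± 0.55, from -1.28 to 1.30. A range under 1.5-fold over the samples was found for 2 of the 21 Vha genes, Vha26 and VhaPPA1-1 (9.52%), against 8.41% of all genes tested.

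VhaPPA1-2, separated from VhaPPA1-1 by 1 protein-coding gene in RefSeq release 6, read 442.8 and 77.3 in Cha-negative samples a and b, against 292.7 and 43.3 in Gad1-negative samples a and b. It was high in both a samples and low in both b samples, with Gad1-negative b under the floor. The highest sample, with that floor in place, stood 9.86-fold over the lowest, against 1.20-fold for its neighbour. Its difference was -0.69 ± 1.23, with Gad1-negative b set to the floor, and turned to 0.57 without Cha-negative a and to 0.66 without Gad1-negative b.

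VhaAC39-1, the d subunit that seats the stalk on the ring, read 2882.1 and 5839.2 against 5022.3 and 4195.3, with only Cha-negative a apart (0.16 ± 0.60; -0.35 without that sample). The e subunits are small membrane proteins of the V0 sector. VhaM9.7-b read 4962.6 and 7199.8 in Cha-negative and 3263.3 and 4674.5 in Gad1-negative. Both Gad1-negative samples lay lower, Gad1-negative b only just (-0.61 ± 0.58, from -1.96 to 0.73). VhaM9.7-d read 393.4 and 320.2 against 223.4 and 166.1, again without overlap (-0.88 ± 0.62, from -2.32 to 0.56). VhaM9.7-a read 2361.6 and 1732.4 against 1959.6 and 1229.2, and VhaM9.7-c 470.9 and 851.1 against 582.6 and 581.4. Both overlapped between groups, at -0.38 ± 0.55 and -0.12 ± 0.56, the second at 0.12 with centring. The 4 genes without overlap and lower in Gad1-negative, Vha36-3, Vha100-5, VhaM9.7-b and VhaM9.7-d, are 19% of the tested members, against 20.1% of all genes tested.

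The accessory subunits gave 2 positive differences. VhaAC45RP, which in fly neurons is needed to acidify synaptic vesicles, read 2043.0 and 2549.4 in Cha-negative samples a and b, against 3213.4 and 4028.6 in Gad1-negative samples a and b. All Gad1-negative values lay above the Cha-negative ones, and the samples of each group were 1.25-fold apart. The difference was 0.66 ± 0.54 (interval from -0.59 to 1.90, limma adjusted p = 0.925), between 0.49 and 0.82 with 1 sample left out. With Vha55 it makes 2 tested members that stood higher without overlap (9.52%), against 14.7% of all genes tested. VhaAC45, its paralogue, read 3142.5 and 2836.3 against 6017.8 and 2170.6. Gad1-negative a stood alone above the others, and the difference of 0.28 ± 0.65 became -0.46 without it.

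Wide gaps between samples of the same group were found among the Vha genes about as often as among all genes tested. The Cha-negative samples were over 2-fold apart in 7 of the 21 tested genes (33.3%), against 29.5% of all genes tested, and the Gad1-negative samples in 8 (38.1%), against 36.1%. In Vha16-1, Vha14-1, Vha44 and Vha100-2 the b sample exceeded the a sample over 2-fold in both groups. These are 4 of the 21 genes (19%), where the share among all genes tested was 4.92%; it was 5.23% after quantile normalization and 7.09% after centring, with the same 4 members. The opposite, a over b, was found for VhaPPA1-2 alone among the tested members (4.76%), against 4.93% of all genes tested. With 2-fold not required, b exceeded a in both groups in 9 of the 21 genes (42.9%), 5 of 8 in V1 and 3 of 11 in V0, against 27.2% of all genes tested. Sample a exceeded b in both groups in 6 of the 21 (28.6%), 1 of 8 in V1 and 4 of 11 in V0, against 33.3%. This pattern was noticed in the values and was not tested, and the labels do not say what the letters share. Marker sums moved by letter in both directions. The summed neuron markers were higher in the b sample of each group, with 3 of the 5 genes (elav, Syn and futsch) higher in b in both groups. Of the other two, brp read 135.9 and 71.6 in Cha-negative samples a and b, against 10.3 (under the floor) and 53.0 in Gad1-negative, and both Cha-negative values of nSyb lay under the floor. The glial, haemocyte and testis sums were higher in the a sample of each group, with 3 of 5, 4 of 5 and 3 of 6 genes higher in a in both groups. The glial gene moody went the other way, at 138.0 and 487.7 in Cha-negative samples a and b, against 145.4 and 382.6 in Gad1-negative. The glial gene nrv2 and the haemocyte gene Pxn were higher in b in Cha-negative (80.9 and 463.7 for Pxn) and higher in a in Gad1-negative. The part of these cell types in the pattern was not tested.

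**Figure D3:**
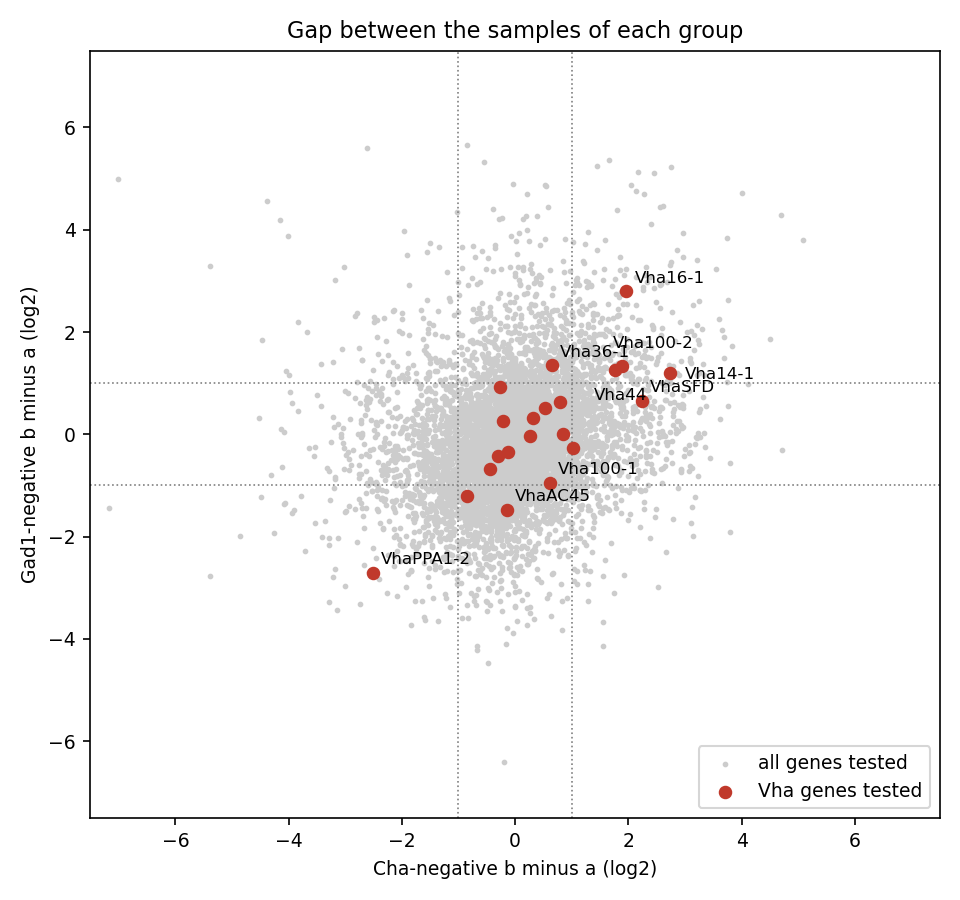
Gap between samples b and a (log2) in Cha-negative (horizontal) against Gad1-negative (vertical) for the 21 tested Vha genes in red and all 6994 tested genes in grey; dotted lines mark 2-fold. Vha16-1, Vha14-1, Vha44 and Vha100-2 lie beyond 2-fold at upper right and VhaPPA1-2 at lower left.

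For the 3 genes with 2 probe sets each, the probe sets differed. The further probe set of VhaSFD read 868.6 and 317.4 in Cha-negative samples a and b, against 507.2 and 663.3 in Gad1-negative samples a and b. It was highest in Cha-negative a and lowest in Cha-negative b, the reverse of the probe set used for the gene. Tested as a feature of its own it differed by 0.14 ± 0.65, against 0.48 ± 0.78. The further probe set of Vha16-1 read 109.7 and 214.6 against 234.5 and 135.1, so the high b samples of the first were seen here for Cha-negative alone (0.21 ± 0.81). For VhaPPA1-1 the further probe set read 137.1 and 96.8 against 294.9 and 152.4. It stood higher in Gad1-negative without overlap (0.88 ± 0.81, from -1.0 to 2.76), where the other was level. Neither member of any of these pairs passed the test, with limma adjusted p from 0.922 to 0.997 over the 6 probe sets.

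**Figure D4:**
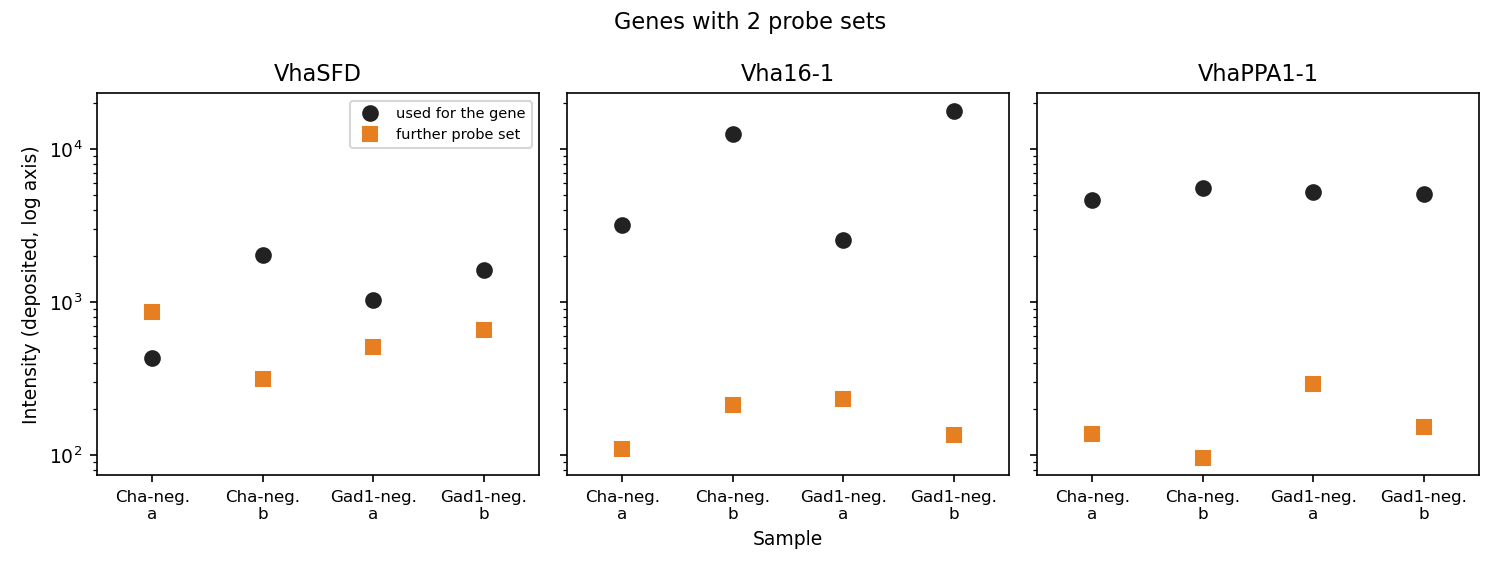
Deposited intensity on a log axis in the 4 samples for VhaSFD, Vha16-1 and VhaPPA1-1, each with the probe set used for the gene (black circles) and a further probe set (orange squares). The probe sets of VhaSFD cross in Cha-negative, and the further probe sets of the other genes are dim.

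The 8 genes under the intensity filter are paralogues of subunits that have another gene above it, or, for the A subunit, one not analysed here. Of these, 1 lay under the floor in all 4 samples (Vha68-3), 6 in some, and 1 in none. Vha36-2, a D-subunit gene, read 241.4 in Cha-negative a and 43.0, 23.8 and 27.5 in the other samples, all under the floor. Vha14-2, of the F subunit, followed the same form at 85.5 in Cha-negative a against 16.9, 23.2 and 7.4. VhaAC39-2, of the d subunit, read 193.2 and 85.2 in Cha-negative samples a and b, against 41.9 and 6.7 in Gad1-negative samples a and b. It lay under the floor in both Gad1-negative samples alone. Each of these 3 genes thus read highest in Cha-negative a, as did Vha16-4 (93.5). The other dim paralogues did not. Vha16-2 (199.3) and Vha100-4 (138.7) read highest in Cha-negative b and Vha16-5 (93.7) in Gad1-negative a, and Vha68-3 lay under the floor throughout. The share of all genes highest in Cha-negative a was not counted. The 6 testis markers summed to 1706 and 758 in Cha-negative samples a and b, against 706 and 255 in Gad1-negative samples a and b, also highest in Cha-negative a. Of that list dj (859.5), Mst84Da (553.8) and betaTub85D (228.1, with 223.2 in Gad1-negative a) read highest in Cha-negative a. The others did not: fzo read highest in Cha-negative b (155.8) and can in Gad1-negative a (53.7). Both lay under the floor in the other 3 samples, and topi lay under it throughout. The part of the testis markers in the paralogues' values was not tested.

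Of the c-subunit paralogues, Vha16-5 read 85.4 and 92.9 in Cha-negative and 93.7 and 58.1 in Gad1-negative, dim but above the floor in every sample. Vha16-4 read 93.5 and 66.0 against 60.4 and 40.8, and Vha16-2 read 41.6 and 199.3 against 175.0 and 82.0. Vha16-2 was thus brightest in Cha-negative b, and its lowest sample, Cha-negative a, was under the floor. Vha100-4, next to Vha100-2 in RefSeq with no protein-coding gene between them, read 56.7 and 138.7 against 33.9 and 55.2. Near the floor in 3 samples, it did not share the split by letter to the same extent, with b over a 2.45-fold in Cha-negative and 1.23-fold, against the floor, in Gad1-negative.

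Genes that work with the pump, and those of the related mitochondrial ATP synthase, showed no called difference either. Of every list 0 were called at an adjusted p under 0.05. Over all the lists 47 genes were tested. At an unadjusted p under 0.05 stood 4 of them, LManII, CAH2, ATPsynB and ATPsynF, each higher in Gad1-negative. The last 2 are of the mitochondrial list. Of all genes tested 2.09% did so in that direction and 4.93% in either. The lists were chosen with earlier results of these data known, and LManII passed the intensity filter only through Gad1-negative. The count is therefore no test against those shares. Of 7 assembly and regulation genes 3 were tested, with 1 positive and 2 negative differences and a median of -0.13. CG5969 read 630.4 and 791.9 in Cha-negative and 392.5 and 368.0 in Gad1-negative, lower without overlap (-0.89 ± 0.53, from -2.13 to 0.34). CG14671 differed by 0.76 ± 0.87 and mtd, of the TLDc family, by -0.13 ± 0.57.

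Of 25 genes of the lysosome and its nutrient sensing 19 were tested, 11 positive and 8 negative, with a median of 0.07 that was 0.51 without Cha-negative b and -0.18 without Cha-negative a. LManII, a lysosomal mannosidase, was at 464.3 and 473.5 in Gad1-negative and under the floor in Cha-negative. It was at least 10.4-fold higher in Gad1-negative. It passed the intensity filter only through that group, and its p rests on 2 Cha-negative values set to the same floor (limma unadjusted p = 0.00293, adjusted p = 0.783). CtsL2, a cathepsin, differed by 1.44 ± 0.93, with Cha-negative b set to the floor, and Lamtor5, of the Ragulator complex, which in mammals docks at the pump, by 0.82 ± 0.58. Vesicle transporters that spend the proton gradient had 2 of 6 genes tested, Vmat, which loads monoamines, at -1.11 ± 0.60, and VGAT, which loads GABA, at 0.13 ± 0.57.

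All 10 genes of the proton-coupled exchangers, chloride channels and carbonic anhydrases were tested, 3 positive and 7 negative, with a median of -0.15 that was 0.21 without Cha-negative a and 0.16 without Gad1-negative b. CAH2, a carbonic anhydrase, read 1013.9 and 443.5 in Cha-negative and 1791.0 and 2158.6 in Gad1-negative. Both Gad1-negative samples lay higher (1.55 ± 0.60, unadjusted p = 0.0325, limma adjusted p = 0.925). The exchangers Nha2 and Nhe2 differed by -1.17 ± 0.84 and -0.73 ± 0.58.

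The mitochondrial F-type ATP synthase is a rotary relative that runs the other way, making ATP from a proton gradient. Of 17 genes 14 were tested, 9 positive and 5 negative, with a median of 0.38, beside -0.05 for the Vha genes and -0.04 for all genes tested. ATPsynB read 600.1 and 516.4 in Cha-negative and 1144.9 and 3893.3 in Gad1-negative (1.92 ± 0.68, limma unadjusted p = 0.0232). ATPsynF read 1130.0 and 1040.0 against 2639.3 and 2864.2 (1.34 ± 0.51, limma unadjusted p = 0.0319), and blw, its catalytic-head alpha subunit, 2945.8 and 4326.3 against 5888.9 and 10992.6 (1.17 ± 0.61). The limma adjusted p of these 3 genes, the ones of smallest p in the list, was 0.925. The groups did not overlap in 6 of the 14 genes, 5 of them higher in Gad1-negative, against 34.7% of all genes tested in either direction and 14.7% higher. With 1 sample left out the list's median ran from 0.18 to 0.64. Whether the vacuolar and mitochondrial lists differ was not tested. The GAPDH and eIF-4a ratios and the muscle sums given above lay apart between the same groups, and the ACTIN ratio did not.

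**Figure D5:**
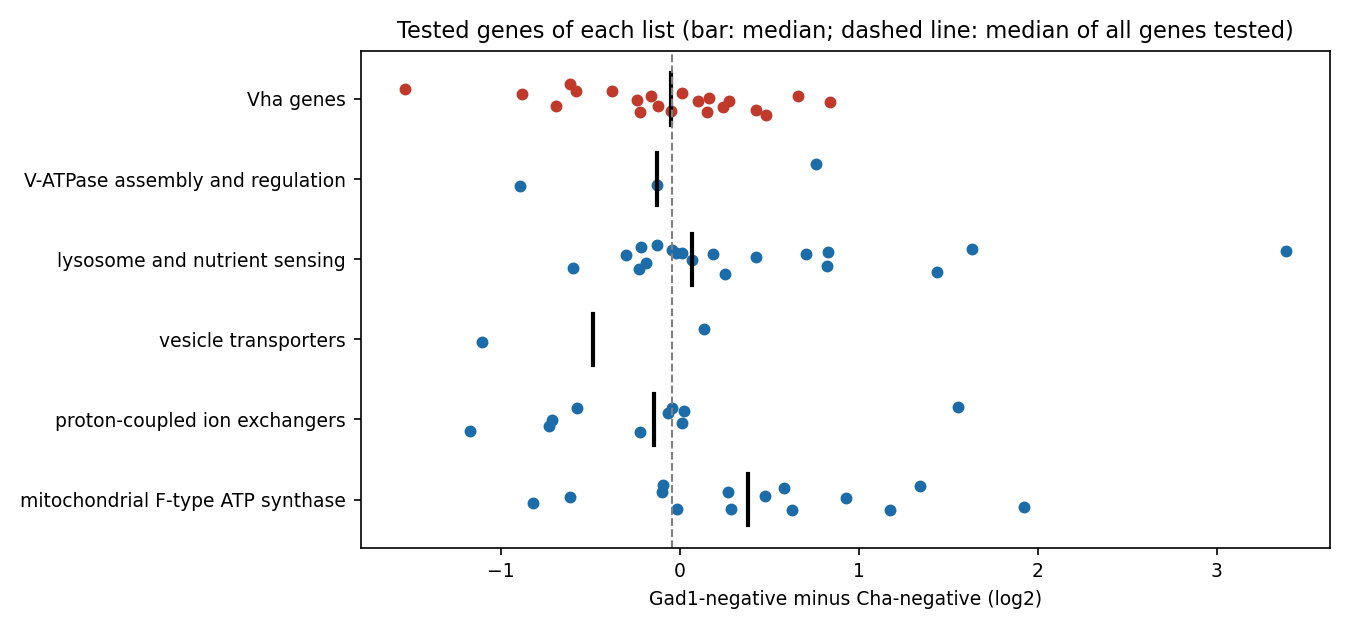
Difference between the fractions (log2, Gad1-negative minus Cha-negative) for each tested gene of the Vha family (red) and of 5 related lists (blue), with black bars at the medians and a dashed line at the median of all genes tested, -0.04. The Vha genes lie around that line, the mitochondrial list has its median at 0.38, and the farthest point is LManII, a lower bound.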

How the data were processed

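The deposited values are intensity, 1 per probe set on a linear scale; in the deposited columns the 2%-trimmed means were equal, at 500.1, so every array had been scaled alike, by software not given in the sources used here. Of 14010 probe sets, 44 were array controls, 12443 named 1 gene, 327 several and 1196 none. Symbols were updated through Entrez identifiers, and each gene was represented by its probe set of highest mean. Values were floored at the 20th percentile, taken to log2, and genes at or above the 40th percentile of probe set means were tested. The fit between groups used lmFit and eBayes (with trend) of limma 3.58.1 under R 4.3.3. Tests were two-sided. Each gene had 2 residual degrees of freedom, to which eBayes added prior ones estimated over all genes tested. P-values were adjusted by Benjamini-Hochberg over all 6994 genes. The code was tested on simulated data. The members and lists were chosen with earlier results of these data known. Named genes are all members and up to 3 tested genes of each related list with the smallest unadjusted p. Coordinates are left out, since no genome build is named. The number of arrays limits the precision. Tables were made with pandas 2.3.3 and numpy 2.4.6 in Python 3.11.15 and figures with matplotlib 3.10.9. Alternatives were quantile normalization, median centring, other floors and filters, an offset of 50, probe sets averaged per gene or each tested, eBayes without trend, the replicate letter as a block, an adjusted p under 0.10 and leaving out each sample.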

Additional observations from a re-analysis of the deposited data

How the results depend on the processing

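Under each alternative run, limma called 0 Vha genes and 0 genes in all at an adjusted p under 0.05, and 0 at an adjusted p under 0.10. At an unadjusted p under 0.05 the count of Vha genes was 1 with no intensity filter (VhaAC39-2, adjusted p = 0.75, both Gad1-negative samples at the floor), 1 with the replicate block (Vha100-5, adjusted p = 0.572) and from 0 to 1 with a sample left out (Vha100-5 without Gad1-negative a, adjusted p = 0.634). The labels do not say what the letters share, and 2 pairs are too few to settle it from the values. Over all genes tested, the gap b minus a correlated between the groups at r = 0.251 across genes, and 8.61% of genes had an unadjusted p under 0.05 with the replicate block, against 4.93% without it. With a sample left out, the median of the Vha genes ran from -0.52 to 0.20; a group left with 1 sample is then assumed to vary like the other. Median centring shifted the median of all genes by 0.25, to 0.20, and that of the Vha genes to 0.20 as well. With it the sign turned for Vha44 (0.20), Vha26 (0.01), Vha13 (0.08), Vha100-1 (0.02) and VhaM9.7-c (0.12), and with quantile normalization for Vha44 (0.03), Vha16-1 (-0.11) and VhaPPA1-1 (-0.09). The other 219 of 227 gene values under alternatives that kept all samples had the same sign. Leaving out a sample turned 13 of 21 genes. Their ranges were -0.93 to 0.83 for Vha44, -0.25 to 1.10 for Vha36-1, -1.22 to 1.52 for Vha14-1, -0.63 to 0.30 for Vha13, -0.64 to 1.60 for VhaSFD, -0.70 to 0.25 for Vha100-1, -0.70 to 1.18 for Vha100-2, -1.30 to 1.5 for Vha16-1, -0.12 to 0.14 for VhaPPA1-1, -2.04 to 0.66 for VhaPPA1-2, -0.35 to 0.67 for VhaAC39-1, -0.55 to 0.31 for VhaM9.7-c and -0.46 to 1.01 for VhaAC45. The cause was not tested. The comparison of sample gaps under other scalings was chosen after seeing the data.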

Other observations

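RefSeq gives older Vha names to 2 further genes, which the rule leaves out because their current symbols differ; they were chosen after their values were seen. ATP6AP2, an accessory subunit of the pump once named VhaM8.9, read 1352.5 and 5028.7 in Cha-negative samples a and b, against 3613.4 and 3094.5 in Gad1-negative samples a and b. Cha-negative a was low and the groups overlapped, with a difference of 0.36 ± 0.72 and a limma adjusted p = 0.959. CG5421, once named VhaAC45-2, read 217.9 and 182.5 against 153.0 and 35.3; it lay under the intensity filter, with Gad1-negative b under the floor, and both Gad1-negative samples were the lower.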
